A study of Mus musculus with 6 samples.

Results

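The BCL2 family of apoptosis regulators was followed in sorted Lewis lung carcinoma (LLC) cells through 10 genes, taken by their symbols: the anti-apoptotic genes Bcl2, Bcl2l1 and Mcl1, the effectors Bax and Bak1, and the BH3-only genes Bid, Bad, Bcl2l11, Bbc3 and Pmaip1. All 10 were found once among the 18182 genes listed in the gene tables. LLC is a cell line from a mouse lung carcinoma, and here it carried red fluorescent protein (RFP). Wild type C57BL/6 mice received LLC-RFP cells under the skin, either by themselves (LLC alone, 3 libraries) or mixed with bone marrow-derived mesenchymal stem cells (LLC with BMSCs, 3 libraries). RFP-positive cells were then sorted from the primary tumours and their polyadenylated RNA was sequenced. The RFP label is given for the LLC cells and for no other cells, so that the gate was meant to leave host cells and BMSCs out. Both groups share the cell line, the label and the sort. The study's methods give the age and sex of the mice used to follow allograft growth, but not of those whose tumours were sorted for sequencing, and the number of mice behind a library was not given in the sources used here, so that the p-values measure the spread between these libraries, which may be technical.

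Proteins of this family decide whether the outer membrane of the mitochondrion stays closed. Bax and Bak form pores through which cytochrome c escapes and starts the caspases, the anti-apoptotic proteins bind and hold them back, and the BH3-only proteins, switched on by stress, starvation or damage, block the anti-apoptotic proteins or push Bax and Bak directly. Because the outcome depends on how much of each kind is present, tumour cells are often described by the balance of these proteins. RNA levels are only one input, since several members are also set by protein turnover and phosphorylation.

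Between 33476347 and 46189113 fragments were counted per library. The first principal component separated both groups and held 87.2% of the variance, so that a very large part of the transcriptome differed: edgeR called 62.9% of 13353 tested genes at an adjusted p under 0.05, 31.5% higher and 31.3% lower in LLC with BMSCs, with a median log2 fold change of 0.01. LLC alone 3 stood apart from LLC alone 1 and 2. Genes were sorted into 5 classes by length. In LLC alone 3, those of the shortest class lay 0.31 above their mean over the 6 libraries in the median (log2) and those of the longest class at -0.37. The trend also differed between the groups. In LLC alone 1 and 2 the shortest class lay at 0.06 and 0.04 and the longest at -0.02 and 0. In LLC with BMSCs 1, 2 and 3 the shortest lay at -0.19, -0.09 and -0.11 and the longest at 0.18, 0.1 and 0.13. Results of the members that rest on LLC alone 3 are given with and without it. As to the label, the lung epithelium markers Nkx2-1, Sftpc, Sftpb and Scgb1a1 summed to 0.0203 to 0.153 CPM (counts in 1000000) and the epithelial genes Krt19, Epcam and Cdh1 were at or near 0, while Krt8 lay at 90.3 to 113 FPKM (fragments per kilobase of transcript and 1000000 fragments). The 9 listed neutrophil markers summed to 0.472 to 0.822 CPM in LLC alone and 22.4 to 25.9 CPM in LLC with BMSCs, with 7 of 7 tested genes higher, of which 6 passed the filter on low counts only through LLC with BMSCs. The 12 macrophage markers went from 24.0 to 29.0 CPM to 34.1 to 36.0 CPM, with 5 of 7 tested genes higher (3 of them through that filter in LLC with BMSCs alone), 1 lower and C1qa, C1qb and C1qc at the floor of 3 counts. The 11 BMSC and fibroblast markers went from 370.0 to 433.0 CPM to 806.0 to 855.0 CPM, with 9 of 9 tested genes higher (Col1a1 through the filter in LLC with BMSCs alone) and Cxcl12 and Thy1 not tested. The erythroid markers summed to 8.66 to 9.04 CPM and 11.1 to 12.0 CPM, the endothelial markers to 1.05 to 1.26 CPM and 1.33 to 1.75 CPM, and the lymphocyte markers to under 1 CPM in each library. Their part in the results below was not tested, and in bulk libraries fewer cells of a type and less RNA per cell cannot be told apart.

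Of the 9 members with counts in both groups, edgeR called 2 higher in LLC with BMSCs (Mcl1, Bcl2l11) and 4 lower (Bcl2l1, Bax, Bid, Bbc3), and 3 did not pass (Bcl2, Bak1, Bad). Pmaip1 was called higher too, but it passed the filter on low counts only through LLC with BMSCs and so had to differ. The 7 calls among 10 members stand beside the 62.9% called among all tested genes, so that the number called is no result about the family. The median log2 fold change was -0.09 over the 10 members and -0.19 over the 9 members without Pmaip1. Of the same 9 members, 2 lay higher (37% of all tested genes) and 4 lower (33.7%) without overlap of their FPKM, which held for 70.6% of all tested genes in either direction. With a fold change of 2 or more required as well, which is 1 on the log2 scale, 2 members were lower, beside 7.17% of all tested genes, and Pmaip1 alone was higher, beside 8.65%. At an adjusted p under 0.001 edgeR called 1 member higher and 4 lower, beside 14.4% and 13.7% of all tested genes. Without LLC alone 3 the fit called 4 members higher and 5 lower, beside 35% and 33.5% of all genes, and with each library's trend over gene length removed it called 3 higher and 5 lower, beside 29.9% and 40.1%, Pmaip1 included among those higher in both. The plot of FPKM by library shows these patterns gene by gene.

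**Figure D1:**
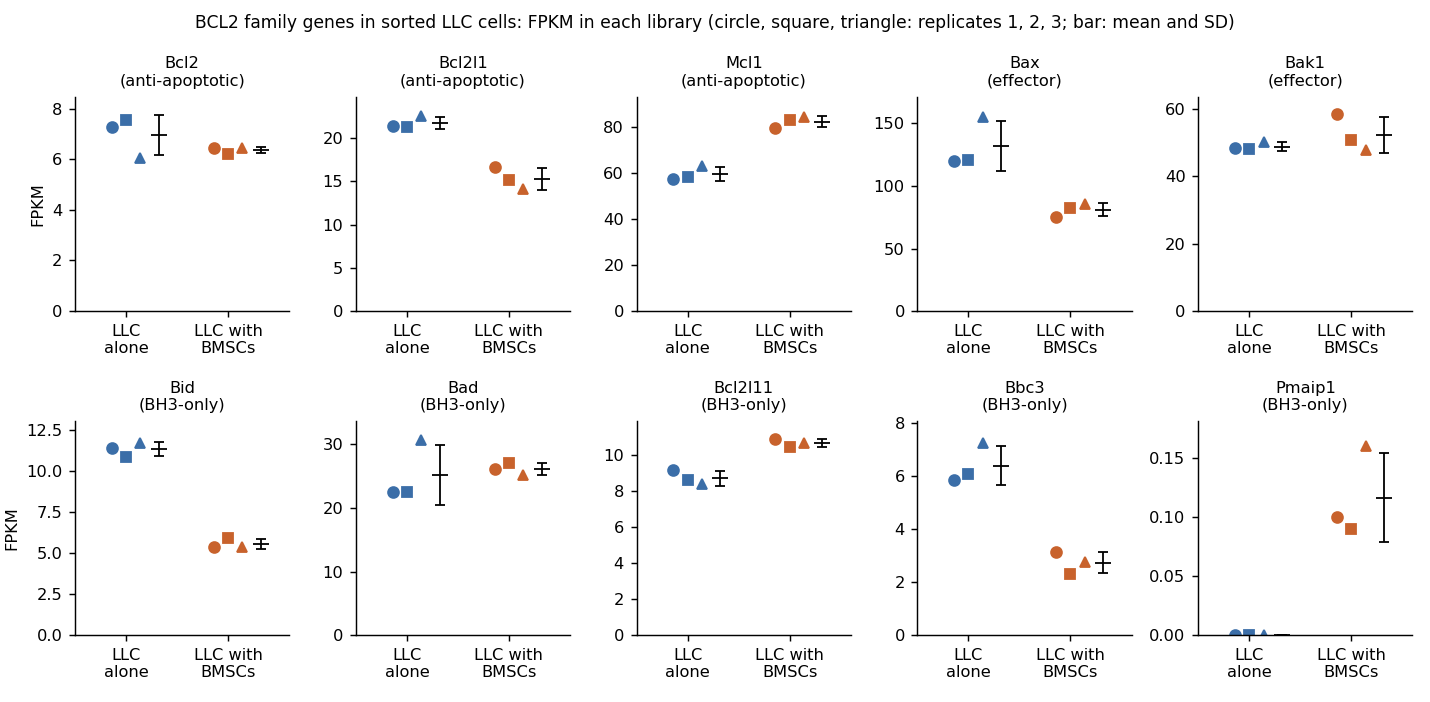
FPKM of the 10 genes in each of the 6 libraries on axes that start at 0, with circles, squares and triangles for replicates 1, 2 and 3 and a bar for the mean and SD of each group. Mcl1 lay between 57.7 and 63.1 in LLC alone and between 79.7 and 84.6 in LLC with BMSCs, while Bax, Bid and Bbc3 lay lower in every LLC with BMSCs library than in any LLC alone library.

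In LLC alone, Bax was the most abundant member per length at 132 ± 19.9 FPKM (SD, n = 3), followed by Mcl1 at 59.7 FPKM and Bak1 at 48.9 FPKM. Bad and Bcl2l1 came next and overlapped, then Bid and Bcl2l11, then Bcl2 and Bbc3, which overlapped, and Pmaip1 was listed in none of these libraries. In LLC with BMSCs the leading pair was Mcl1 at 82.5 ± 2.52 FPKM and Bax at 81.0 ± 5.27 FPKM (SD, n = 3), whose ranges overlapped. Bak1, Bad, Bcl2l1, Bcl2l11, Bcl2, Bid, Bbc3 and Pmaip1 followed without overlap of neighbours. Bid thus stood above Bcl2l11 and Bcl2 in LLC alone and below both in LLC with BMSCs.

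Promoter sequence is shown for Mcl1 and Bax, the most abundant members of each group, and for Bid, which fell the most among members of a single listed transcript. RefSeq windows on GRCm38.p6 were matched by symbol for 9 members, in 15 windows, and Pmaip1 was left out of this search. The genes shown were chosen after their values were seen. The bases before the RefSeq start are printed 5′ to 3′ on the gene's strand, without those annotated as exon, at chr3:95658471-95658720 (plus strand) for Mcl1, chr7:45466899-45467148 (minus strand) for Bax and chr6:120916854-120917074 (minus strand) for Bid. Capitals mark matches, on either strand, to GGGCGG (the GC box), CACGTG (the E-box bound by Myc), TTCNNNGAA (a STAT site), TGATGNAA (an ATF4 and CHOP composite site) or the p53 half-site.
Mcl1: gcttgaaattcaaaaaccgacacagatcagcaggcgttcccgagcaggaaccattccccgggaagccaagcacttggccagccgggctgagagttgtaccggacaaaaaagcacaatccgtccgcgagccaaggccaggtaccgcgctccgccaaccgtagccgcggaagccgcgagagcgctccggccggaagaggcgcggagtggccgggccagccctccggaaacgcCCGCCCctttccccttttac
Bax: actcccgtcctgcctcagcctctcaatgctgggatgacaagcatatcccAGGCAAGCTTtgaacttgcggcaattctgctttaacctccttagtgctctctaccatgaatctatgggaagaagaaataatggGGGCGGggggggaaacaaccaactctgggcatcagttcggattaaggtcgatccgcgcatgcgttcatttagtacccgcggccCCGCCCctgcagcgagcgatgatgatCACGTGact
Bid: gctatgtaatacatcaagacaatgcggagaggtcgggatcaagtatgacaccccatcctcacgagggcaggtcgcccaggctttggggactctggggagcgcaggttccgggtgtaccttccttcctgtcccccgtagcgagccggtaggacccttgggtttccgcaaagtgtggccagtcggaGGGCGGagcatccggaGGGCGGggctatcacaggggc
No marked site overlapped another. Over the 250 bases before the start, a GC box was found in 32.7% of 32851 windows in the table, an E-box in 6.02%, a STAT site in 7.02%, an ATF4 and CHOP composite site in 3.45% and a p53 half-site in 7.13%. The Bax window held an E-box, a p53 half-site and 2 GC boxes, the Mcl1 window 1 GC box, and the Bid window 3 GC boxes, of which 2 lie in the printed stretch. A match is a match of letters and was not tested for binding.

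Among the anti-apoptotic members, Mcl1 was higher and Bcl2l1 lower in LLC with BMSCs. Mcl1 (NCBI gene 17210, chr3:95658788-95663176) encodes a short-lived protein that binds Bak and several BH3-only proteins. Its FPKM were 57.7, 58.5 and 63.1 in LLC alone 1, 2 and 3 and 79.7, 83.3 and 84.6 in LLC with BMSCs 1, 2 and 3. Every library of LLC with BMSCs lay above every library of LLC alone, with a log2 fold change of 0.45 ± 0.061 (SE) and an edgeR adjusted p of 0.00048. With the trend over gene length removed from each library the value was 0.30 ± 0.061 (SE, edgeR adjusted p = 0.00201).

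Bcl2l1 (NCBI gene 12048, chr2:152780668-152831728) encodes Bcl-xL, which holds Bax and Bak in check. Its FPKM were 21.4, 21.3 and 22.5 in LLC alone and 16.6, 15.2 and 14.1 in LLC with BMSCs. The groups did not overlap, and the gene fell by 0.52 ± 0.074 (SE) on the log2 scale with an edgeR adjusted p of 0.000548. The ratio of Mcl1 to Bcl2l1 FPKM was 2.75 ± 0.0522 in LLC alone and 5.43 ± 0.609 in LLC with BMSCs (SD, n = 3 each).

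Bcl2 (NCBI gene 12043, chr1:106538178-106714274), the founding member and an inhibitor of Bax and of BH3-only proteins, gave no call over the 6 libraries. It lay at 7.28, 7.56 and 6.05 FPKM in LLC alone and 6.44, 6.23 and 6.43 FPKM in LLC with BMSCs. LLC alone 3 was the lowest of the 6 libraries and made the groups overlap, with a log2 fold change of -0.19 ± 0.084 (SE), a 95% interval of -0.39 to 0.01 and an edgeR adjusted p of 0.0823. Without LLC alone 3 the value was -0.27 ± 0.045 (SE, edgeR adjusted p = 0.000738), in a fit that called 68.5% of all genes, and with the length trend removed it was -0.49 ± 0.041 (SE, edgeR adjusted p = 1.16e-05), in a fit that called 70% of all genes.

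Bax fell and no change passed the test for Bak1, the other effector. Bax (NCBI gene 12028, chr7:45461697-45466898) lies in the cytosol until it moves to the mitochondrion and forms pores. Its FPKM were 120, 120 and 155 in LLC alone and 75.1, 82.5 and 85.3 in LLC with BMSCs. LLC alone 3 was far above the other LLC alone libraries, and all 3 exceeded every LLC with BMSCs library. The log2 fold change was -0.72 ± 0.107 (SE, edgeR adjusted p = 0.000695). It was -0.59 ± 0.051 (SE, edgeR adjusted p = 1.98e-05) without LLC alone 3 and -0.53 ± 0.045 (SE, edgeR adjusted p = 1.28e-05) with the length trend removed.

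Bak1 (NCBI gene 12018, chr17:27019810-27029009), the effector that resides in the mitochondrial membrane, was at 48.3, 48.0 and 50.3 FPKM in LLC alone and 58.4, 50.7 and 47.9 FPKM in LLC with BMSCs. LLC with BMSCs 1 was the highest and LLC with BMSCs 3 the lowest of all 6 libraries. The log2 fold change was 0.08 ± 0.084 (SE), its 95% interval of -0.12 to 0.27 covers small changes in both directions, and the edgeR adjusted p was 0.438. The ratio of Bax to Bak1 FPKM was 2.69 ± 0.332 in LLC alone and 1.57 ± 0.253 in LLC with BMSCs (SD, n = 3 each), without overlap.

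Of the BH3-only members, Bid and Bbc3 showed the largest falls among the 10 genes. Bid (NCBI gene 12122, chr6:120891930-120916853) links death receptors to mitochondria, being cut by caspase-8. Its FPKM were 11.4, 10.9 and 11.7 in LLC alone and 5.39, 5.93 and 5.37 in LLC with BMSCs, so that the libraries of a group lay close together and the groups far apart. The log2 fold change was -1.05 ± 0.073 (SE), 2.07-fold lower, with an edgeR adjusted p of 1.54e-05. Exons of Bid overlap those of Bcl2l13 on the opposite strand. Whether counting used strand was not given in the sources used here, and Bcl2l13 had a mean normalized count of 2186 in LLC alone and 2479 in LLC with BMSCs. Exons of Bax overlap those of Gm45808 on the same strand, and those of Bcl2 overlap D630008O14Rik on the opposite strand. Neither partner was listed. Exons of Bak1 overlap those of Ggnbp1 on the opposite strand, whose mean normalized count was 39.8 in LLC alone and 69.6 in LLC with BMSCs.

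Bbc3 (NCBI gene 170770, chr7:16308393-16318205) encodes Puma, a p53 target that binds all anti-apoptotic members. It lay at 5.85, 6.08 and 7.23 FPKM in LLC alone and 3.14, 2.32 and 2.77 FPKM in LLC with BMSCs. The lowest LLC alone library was above the highest LLC with BMSCs library, and the log2 fold change of -1.26 ± 0.138 (SE) corresponds to 2.39-fold lower, with an edgeR adjusted p of 0.000154. The absolute log2 fold change was larger than that of 88.1% of tested genes. By Euclidean distance between log2(FPKM + 1) profiles over the 6 libraries, each centred on its own mean, the genes most like Bbc3 were Mea1 (distance 0.151), Zdhhc24 (0.173) and Cox19 (0.181). Zdhhc24, for example, went from 7.18, 6.97 and 7.76 FPKM to 3.40, 2.96 and 3.40 FPKM.

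Bcl2l11 (NCBI gene 12125, chr2:128126038-128162547) encodes Bim, a BH3-only protein that the FOXO factors induce and that ERK marks for destruction. Its FPKM were 9.15, 8.58 and 8.36 in LLC alone and 10.9, 10.4 and 10.7 in LLC with BMSCs. The groups did not overlap, with a log2 fold change of 0.28 ± 0.057 (SE) and an edgeR adjusted p of 0.0035. The call stayed without LLC alone 3, at 0.25 ± 0.044 (SE, edgeR adjusted p = 0.00107). It was lost with the length trend removed, at 0.07 ± 0.044 (SE, edgeR adjusted p = 0.205).

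Bad (NCBI gene 12015, chr19:6941861-6951899), which survival kinases hold inactive by phosphorylation, gave 22.5, 22.5 and 30.7 FPKM in LLC alone and 26.1, 27.0 and 25.2 FPKM in LLC with BMSCs. LLC alone 3 was the highest library and the other LLC alone libraries were the lowest. The log2 fold change was 0.01 ± 0.119 (SE), with a 95% interval of -0.27 to 0.28 and an edgeR adjusted p of 0.972. Without LLC alone 3 it was 0.17 ± 0.053 (SE, edgeR adjusted p = 0.0202), and with the length trend removed it was 0.19 ± 0.069 (SE, edgeR adjusted p = 0.0322). Bad had estimated counts that were not whole in all 6 libraries, and its exons overlap those of Gpr137 on the opposite strand, whose mean normalized count was 466 in LLC alone and 556 in LLC with BMSCs.

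Pmaip1 (NCBI gene 58801) encodes Noxa, a p53 target that binds Mcl1. It was listed in no library of LLC alone and had estimated counts of 11, 10 and 18 in LLC with BMSCs, or 0.1, 0.09 and 0.16 FPKM. Set against a floor of 3 counts per library in LLC alone, it was at least 3.97-fold higher in LLC with BMSCs. This is the lowest level of the 10 members, and the floor covers counting error only. Having passed the filter through LLC with BMSCs alone, its p is not given as support.

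**Figure D2:**
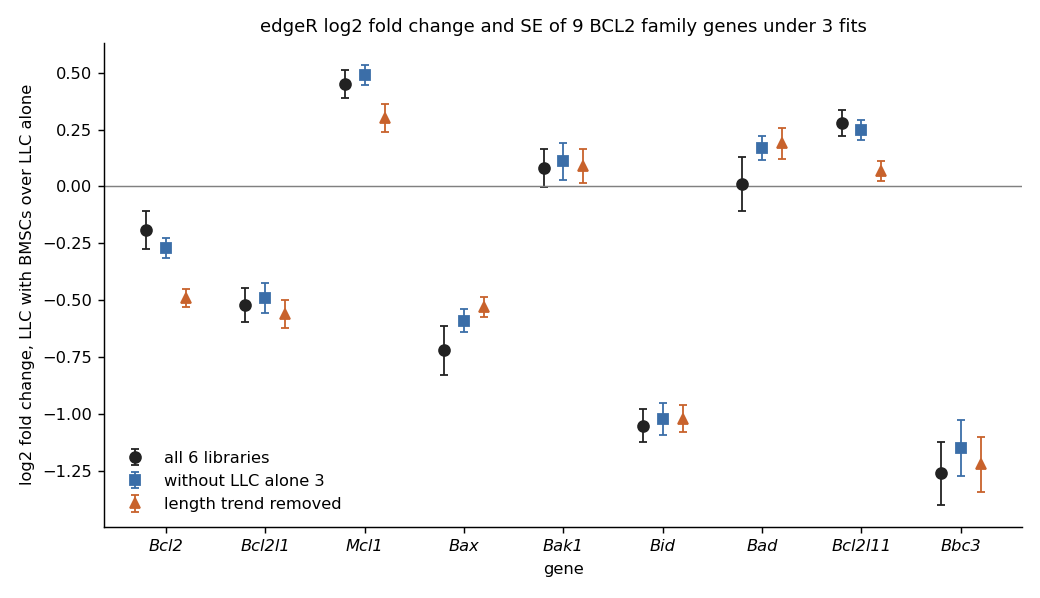
Log2 fold change (LLC with BMSCs over LLC alone) with its SE, from edgeR, for 9 members under 3 fits: all 6 libraries (circles), without LLC alone 3 (squares) and with the trend over gene length removed (triangles). Bcl2l1, Mcl1, Bax, Bid and Bbc3 keep their side of 0 in all 3 fits, while Bcl2l11 moves from 0.28 to 0.07 and Bcl2 from -0.19 to -0.49 when the length trend is removed. Pmaip1 is left out because LLC alone gave no counts.

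Summed by role, FPKM of the anti-apoptotic genes was higher and that of the effectors lower in LLC with BMSCs. The genes of a role did not move together. Among the anti-apoptotic genes only Mcl1 was called higher and Bcl2l1 was called lower, and of the effectors only Bax was called lower. The sum of Bcl2, Bcl2l1 and Mcl1 was 86.3, 87.4 and 91.7 FPKM in LLC alone and 102.8, 104.7 and 105.1 FPKM in LLC with BMSCs, and Mcl1 made up 66.8% to 68.8% of it in LLC alone and 77.6% to 80.5% in LLC with BMSCs. The sum of Bax and Bak1 was 168.5, 168.4 and 205.1 FPKM in LLC alone and 133.5, 133.2 and 133.3 FPKM in LLC with BMSCs. The BH3-only sum went from 48.9, 48.0 and 58.0 FPKM to 45.6, 45.8 and 44.2 FPKM, also without overlap. Of the FPKM of all 10 members, the anti-apoptotic genes took 27.7 ± 1.59% in LLC alone and 36.9 ± 0.368% in LLC with BMSCs, the effectors 56.2 ± 1.36% and 47.2 ± 0.203%, and the BH3-only genes 16.1 ± 0.271% and 16.0 ± 0.293% (SD, n = 3 each). These sums carry no test, and the trend over gene length was not removed from them.

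Within a library, Mcl1 over Bax was 0.480, 0.486 and 0.408 in LLC alone and 1.06, 1.01 and 0.991 in LLC with BMSCs. The listed transcript of Mcl1 has 3498 bases and NM_007527 of Bax 869, and these FPKM keep each library's trend over gene length. With that trend removed, the edgeR log2 fold change was 0.30 in place of 0.45 for Mcl1 and -0.53 in place of -0.72 for Bax. The anti-apoptotic sum over the effector sum was 0.493 ± 0.0396 in LLC alone and 0.781 ± 0.0102 in LLC with BMSCs (SD, n = 3 each). FPKM summed over all genes came to 515662 to 579328 in LLC alone and 470940 to 489275 in LLC with BMSCs, so that summed FPKM depend on this total. Scaled to a total of 1000000 in each library, the 10 members together made up 584.9 to 612.2 in LLC alone and 579.9 to 598.6 in LLC with BMSCs. The BH3-only log2 ratio of summed FPKM was -0.19, or -0.1 without LLC alone 3, and -0.03 over all 6 libraries once scaled to the same total.

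**Figure D3:**
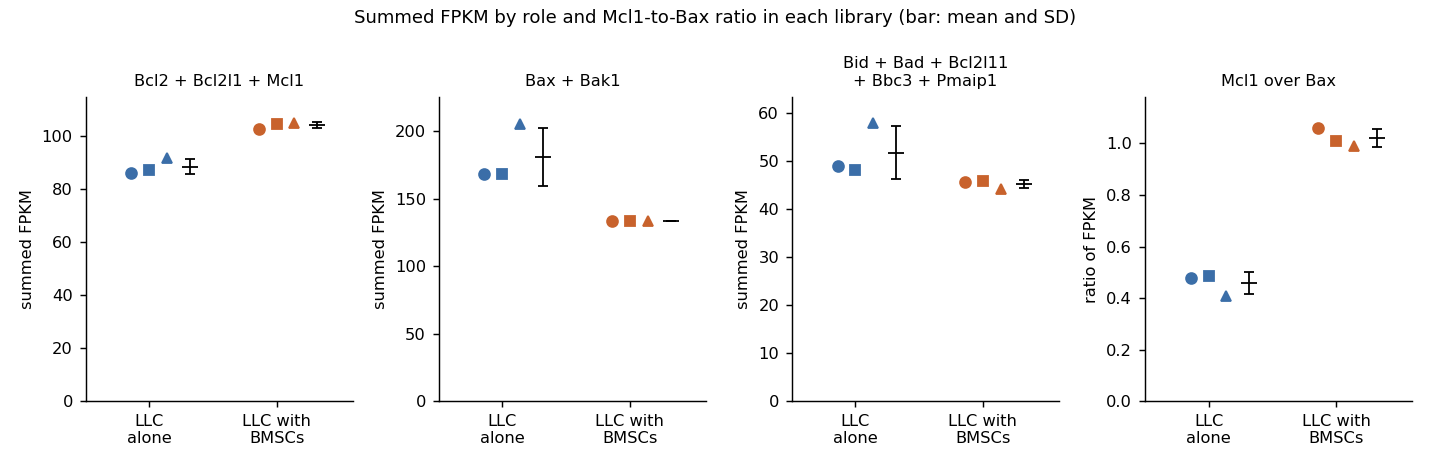
Summed FPKM of the anti-apoptotic, effector and BH3-only genes and the ratio of Mcl1 to Bax FPKM, one point per library (circle, square and triangle for replicates 1, 2 and 3) with mean and SD. The Mcl1-to-Bax ratio stays at or below 0.486 in LLC alone and at or above 0.991 in LLC with BMSCs. The trend over gene length was not removed from these FPKM.

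The transcript tables split several members further. For Bcl2l1, the difference in FPKM was largest for NM_009743, which went from 13.7, 14.3 and 15.5 FPKM to 10.4, 9.21 and 7.80 FPKM and from 66.5 ± 2.42% to 59.6 ± 3.75% of the gene's FPKM (SD, n = 3 each). NM_001289716 went from 6.59 ± 0.440 FPKM to 5.42 ± 0.107 FPKM (SD, n = 3 each). All 3 listed RefSeq transcripts of Bcl2l1 carry a coding length of 699 bases, that of Bcl-xL. For Bcl2l11, NM_207681, with a coding length of 420 bases, took 29.3%, 31.9% and 37.3% in LLC alone and 37.6%, 41.0% and 42.7% in LLC with BMSCs. Its levels of 2.68 to 3.12 FPKM and 4.08 to 4.56 FPKM did not overlap, while NM_207680, with a coding length of 588 bases, lay at 3.65 to 4.67 FPKM and 4.42 to 4.96 FPKM, which overlap. For Bcl2, NM_177410 went in share from 3.81 ± 1.18% to 7.77 ± 1.76% (SD, n = 3 each) at only 0.18 to 0.61 FPKM.

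**Figure D4:**
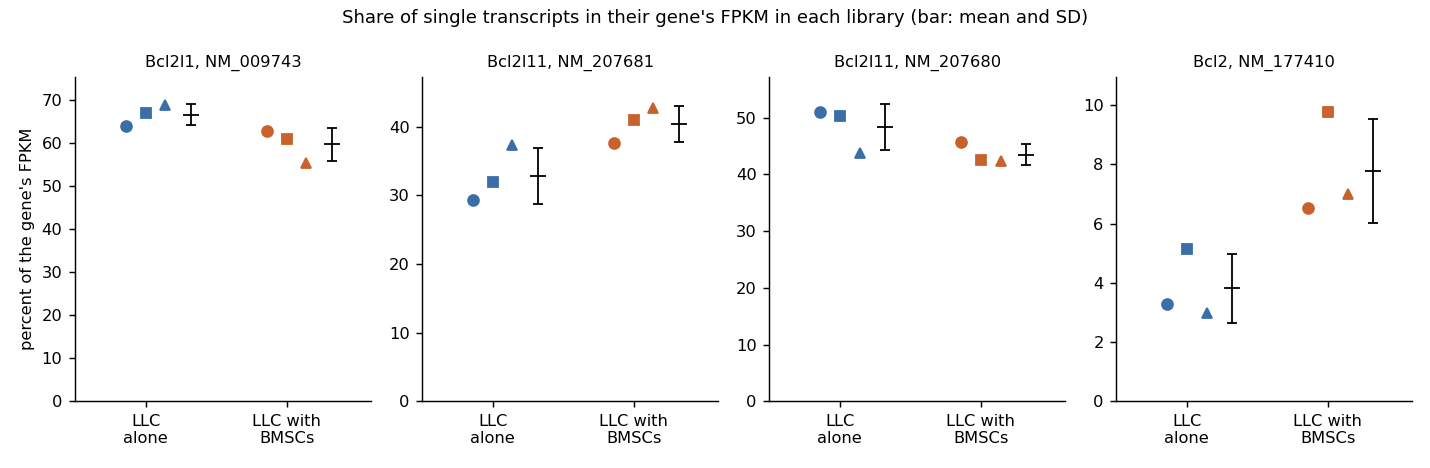
Percent of the gene's FPKM taken by NM_009743 of Bcl2l1, NM_207681 and NM_207680 of Bcl2l11 and NM_177410 of Bcl2 in each library, with mean and SD of each group. For NM_207681 the highest LLC alone library (37.3%) and the lowest LLC with BMSCs library (37.6%) nearly touch.

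Bax was listed as NM_007527, which went from 114 ± 18.1 FPKM to 69.7 ± 6.23 FPKM, and as a transcript assembled by the authors' pipeline, which went from 17.8 ± 1.83 FPKM to 11.3 ± 0.982 FPKM (SD, n = 3 each). Their shares overlapped between groups. Bbc3 was divided among 3 transcripts whose shares varied widely between libraries, NM_133234 taking 44.0% to 62.4% in LLC alone and 43.3% to 72.6% in LLC with BMSCs. Mcl1, Bak1, Bid and Pmaip1 each had a single listed transcript. Shares rest on how reads common to several transcripts were divided, which the files do not show, and they carry no test.

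Beyond the 10 genes, 15 of 16 other BCL2 family genes were listed (Bcl2l14 was not) and 11 were tested. Of these, 7 were higher, 3 lower and 1 did not pass, with a median log2 fold change of 0.62. This count and those of the lists below stand beside 31.5% higher and 31.3% lower among all tested genes. Bcl2a1b, Bcl2a1d and Hrk passed the filter through only 1 group and so had to differ. Among the other 8 tested relatives 5 were higher, 2 lower and 1 did not pass, with a median of 0.4. Bnip3 and Bnip3l, mitophagy receptors induced by low oxygen, were among the relatives called higher. Bnip3 went from 33.03, 32.44 and 36.44 FPKM to 109, 124 and 120 FPKM (log2 fold change 1.77 ± 0.076, edgeR adjusted p = 1.55e-06), and Bnip3l from 31.6, 32.6 and 32.2 FPKM to 60.5, 61.6 and 62.8 FPKM (0.92 ± 0.052, edgeR adjusted p = 5.54e-06). In LLC with BMSCs both lay above Bak1 in every library, and Bnip3 above Mcl1 and Bax as well.

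Among anti-apoptotic relatives, Bcl2l2, which encodes Bcl-w, was lower (8.74 ± 0.351 FPKM to 6.36 ± 0.0862 FPKM, log2 fold change -0.48 ± 0.056, edgeR adjusted p = 0.000211). Bcl2a1b and Bcl2a1d, copies of the A1 gene that is active in myeloid cells, were at 0 counts in LLC alone and were at least 9.89-fold and at least 5.07-fold higher in LLC with BMSCs, at 0.61 to 1.30 FPKM and 0.36 to 0.65 FPKM. Bcl2a1a was below the filter on low counts, with 0 in LLC alone and 0.27 to 0.45 FPKM in LLC with BMSCs, and Bcl2a1c was at or under the floor throughout. The Bcl2a1 genes are near-identical copies among which reads can be split, so their single values are uncertain. Bcl2a1b and Bcl2a1d were higher in the libraries in which the summed neutrophil, macrophage, BMSC and fibroblast, erythroid and endothelial markers were higher too. The same holds for every gene called higher in LLC with BMSCs, so the cells that these reads come from cannot be told apart, and their source was not tested. Bcl2l10 was at or under the floor of 3 counts in every library.

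Of the BH3-only relatives, Bmf, which responds to loss of anchorage, fell from 1.62 ± 0.161 FPKM to 0.977 ± 0.121 FPKM (log2 fold change -0.75 ± 0.124, edgeR adjusted p = 0.00122). Hrk had 47, 23 and 54 estimated counts in LLC alone and 2, 0 and 3 in LLC with BMSCs, at least 14.3-fold lower against the floor. Bik was below the filter at 0.24 to 0.30 FPKM in LLC alone and 0.03 to 0.13 FPKM in LLC with BMSCs. Bok, an effector-like gene, did not pass at 36.2 ± 4.45 FPKM and 35.6 ± 1.71 FPKM (log2 fold change -0.05 ± 0.094, edgeR adjusted p = 0.678).

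The less studied relatives Bcl2l12 (log2 fold change 0.62 ± 0.109, edgeR adjusted p = 0.0017) and Bcl2l15 (1.12 ± 0.160, edgeR adjusted p = 0.000596) were higher at 2.46 to 4.22 FPKM and 1.03 to 2.40 FPKM over all libraries. Bcl2l13, the opposite-strand neighbour of Bid, was called higher (0.18 ± 0.057, edgeR adjusted p = 0.0235). Its sign turned with the length trend removed (-0.12, edgeR adjusted p = 0.14), and the call was lost without LLC with BMSCs 1, 2 or 3 (0.17 to 0.19, edgeR adjusted p of 0.0565 to 0.0698).

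Of 17 tested genes for mitochondrial release and caspases, 8 were higher, 4 lower and 5 did not pass (median log2 fold change 0.07), and without Endog, 7 of 16 were higher. Endog, a mitochondrial nuclease, went from 0.06, 0.04 and 0.12 FPKM to 0.85, 0.87 and 0.55 FPKM, with a fitted log2 fold change of 3.27 ± 0.396, and it passed the filter only through LLC with BMSCs. The executioner caspase Casp6 rose from 7.74 ± 0.834 FPKM to 16.2 ± 0.496 FPKM (log2 fold change 1.04 ± 0.089, edgeR adjusted p = 4.24e-05). Apaf1, the scaffold on which cytochrome c activates caspase-9, rose from 5.31 ± 1.11 FPKM to 9.69 ± 0.491 FPKM (0.86 ± 0.126, edgeR adjusted p = 0.000645).

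Of 8 caspase inhibitor (IAP) genes, 4 were higher, 0 lower and 4 did not pass by edgeR, with a median log2 fold change of 0.47. Of all tested genes, 31.5% were higher and 31.3% lower. By unadjusted p, 4 of the 8 were under 0.05. With the length trend removed, 3 were called higher and 1 lower, beside 29.9% and 40.1% of all tested genes. Birc3, which encodes the NF-kB target cIAP2, went from 0.34, 0.35 and 0.25 FPKM to 5.76, 5.78 and 5.68 FPKM, with a log2 fold change of 4.39 ± 0.108 (edgeR adjusted p = 1.21e-07). Its relative Birc2 (cIAP1) rose from 6.51 ± 0.499 FPKM to 9.46 ± 0.434 FPKM (0.57 ± 0.071, edgeR adjusted p = 0.000282). Naip5, a sensor of bacterial flagellin with an IAP fold, went from 0.667 ± 0.0231 FPKM to 0.910 ± 0.0361 FPKM (0.42 ± 0.090, edgeR adjusted p = 0.0044), a call lost with the length trend removed (0.17, edgeR adjusted p = 0.134).

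Factors that act on the member proteins (kinases, ubiquitin enzymes and binding partners) were split, with 6 of 16 higher, 4 lower and 6 not past the test (median log2 fold change 0.13). With the length trend removed, 6 were higher and 7 lower, beside 29.9% and 40.1% of all tested genes. Mapk9, the kinase JNK2, rose from 11.8 ± 0.665 FPKM to 23.1 ± 0.315 FPKM (1.10 ± 0.079, edgeR adjusted p = 1.89e-05). Usp9x, a deubiquitinase that stabilizes the Mcl1 protein, went from 19.4, 20.8 and 12.9 FPKM to 29.8, 26.7 and 27.7 FPKM (0.65 ± 0.163, edgeR adjusted p = 0.00932), LLC alone 3 being the lowest, and its log2 fold change was 0.27 with the length trend removed. Ywhab, a 14-3-3 protein of the kind that holds phosphorylated Bad in the cytosol, fell from 142 ± 2.02 FPKM to 95.7 ± 0.769 FPKM (-0.59 ± 0.051, edgeR adjusted p = 4.34e-05). The other listed 14-3-3 genes did not move with it. Ywhae rose from 280 ± 6.29 FPKM to 364 ± 15.7 FPKM (0.36 ± 0.059, edgeR adjusted p = 0.00121). Ywhaz did not pass at 264 ± 6.91 FPKM and 247 ± 7.56 FPKM (-0.09 ± 0.057, edgeR adjusted p = 0.218), though it was called lower with the length trend removed (-0.22, edgeR adjusted p = 0.00226).

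Of 12 tested genes for transcription factors with known targets among the members, 4 were higher, 4 lower and 4 did not pass (median log2 fold change 0.00). Ddit3, which encodes the stress factor CHOP, fell from 244, 244 and 294 FPKM to 29.8, 30.9 and 31.8 FPKM (log2 fold change -3.10 ± 0.094, edgeR adjusted p = 3.29e-07). Stat3, a factor downstream of cytokine receptors that can induce Mcl1, went from 11.4, 12.2 and 10.5 FPKM to 27.8, 26.3 and 26.4 FPKM (1.22 ± 0.070, edgeR adjusted p = 5.88e-06). Myc, which drives growth and primes cells for apoptosis, fell from 683 ± 5.35 FPKM to 298 ± 20.7 FPKM (-1.22 ± 0.067, edgeR adjusted p = 4.8e-06).

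Bbc3, Bax and Pmaip1 are classical p53 targets, and of 13 tested other p53 targets 3 were higher, 7 lower and 3 did not pass (median log2 fold change -0.20). Fas, a death receptor, went from 0.53, 0.49 and 0.87 FPKM to 4.89, 5.84 and 5.41 FPKM (log2 fold change 3.12 ± 0.194, edgeR adjusted p = 8.98e-06). Gadd45a, a stress sensor in DNA repair, fell from 258 ± 35.0 FPKM to 40.5 ± 1.32 FPKM (-2.69 ± 0.105, edgeR adjusted p = 9.37e-07). The cell cycle inhibitor Cdkn1a rose from 14.01 ± 0.871 FPKM to 36.4 ± 1.66 FPKM (1.35 ± 0.071, edgeR adjusted p = 3.95e-06). Over the 6 lists, 32 of 77 tested genes were higher and 22 lower, next to the 31.5% and 31.3% of all tested genes. With the length trend removed 29 were higher and 28 lower, next to 29.9% and 40.1%. These counts include Bcl2a1b, Bcl2a1d, Hrk and Endog, which passed the filter through only 1 group and so had to differ.

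**Figure D5:**
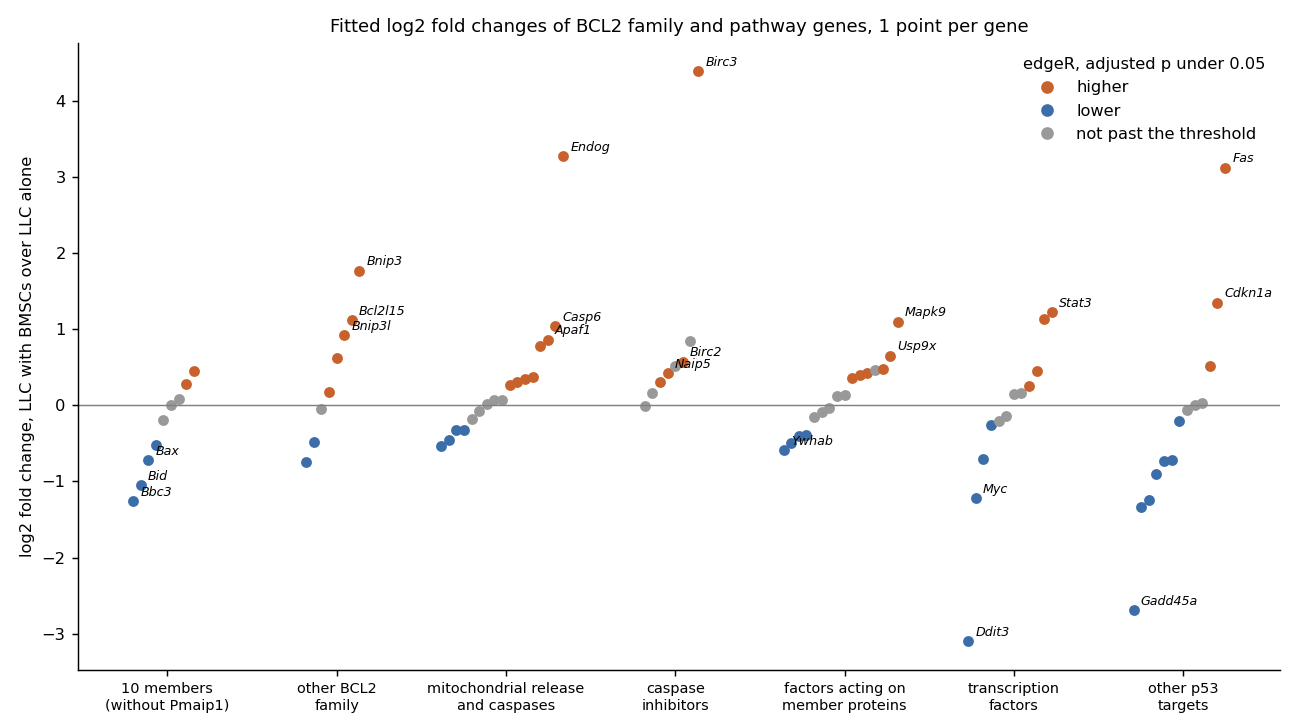
Log2 fold change (LLC with BMSCs over LLC alone) of the members and of 6 lists of related genes, one point per tested gene, in orange where edgeR called it higher, in blue where lower and in grey where not past the adjusted p of 0.05. Names mark up to 3 called genes per list with the largest change, from Birc3 at 4.39 to Ddit3 at -3.10. Genes with a group at the floor (Pmaip1, Bcl2a1b, Bcl2a1d, Hrk) are left out.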

How the data were processed

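RFP-positive LLC cells sorted from mouse tumours were profiled by RNA sequencing as LLC alone (3 libraries) and LLC with BMSCs (3 libraries), following their labels. The study's methods give TRIzol extraction, oligo-dT selection and paired reads of 100 bases on a BGISEQ-500, whereas the labels name Illumina protocols. The submitters' processing notes list mm8, HISAT, StringTie, Cufflinks and GATK without roles, and the counting program, annotation and use of strand were not given in the sources used here. The deposited estimated counts per gene are not normalized and divide reads shared between transcripts, and the authors' FPKM per gene and per transcript are scaled by length and library total. The whole-series FPKM table held the same values.

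Estimated counts were rounded and tested with edgeR 4.0.16 in R 4.3.3 (TMM scaling, default low-count filter with a minimum of 10, quasi-likelihood test over the 6 libraries, Benjamini-Hochberg over 13353 genes, threshold 0.05). SE is the absolute log2 fold change over the square root of the statistic, and 95% intervals use the t distribution at the test's total degrees of freedom. DESeq2 1.42.0 and limma 3.58.1 on log2 FPKM with a pseudocount of 1 or 0.1 were alternatives, as were other scalings, filters, a fit with each library's loess trend over gene length removed, and fits without each library. Normalized counts are CPM scaled to the mean library size, and bounds use a floor of 3 counts per library. At this size (3 against 3) exact permutation gives no two-sided p below 0.1. LLC alone 1 and 2, and LLC with BMSCs 2 and 3, were closest (chi-square per gene 4.69 and 2.98, against 18.9 to 59.3 for other pairs) and were kept as separate libraries. On simulated counts of 13353 genes for this comparison, edgeR recovered 193 of 200 changed genes with 5 false calls among 198. DESeq2 gave 32 false calls among 228 and edgeR with the replicate block 19 among 211. Each planted change was 1 on the log2 scale, larger than that of most members, and all other genes were left unchanged, unlike in the data. Counts were drawn from dispersions fitted by edgeR itself, without a trend over gene length, and changes were planted only in genes above a limit on expected counts. The false calls therefore do not rank the methods for these data. Recovery of smaller changes was not tested. Positions are from the GENCODE annotation of GRCm38 by symbol, not from the authors' build, and promoters from RefSeq on GRCm38.p6.

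The members, the lists and the marker genes were chosen with earlier results of these data known. All members and other BCL2 family genes are named; from each further list, up to 3 called genes of largest change whose FPKM did not overlap.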

Additional observations from a re-analysis of the deposited data

How the results depend on the processing

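Over 18 alternative fits, the direction and call of Mcl1, Bax, Bid, Bbc3 and Bcl2l1 were the same in 90 of 90 combinations. These genes are grouped because they kept their calls, while Bcl2l11, also called, lost its call in 2 fits. All fits draw on the same 6 libraries, so that this count is no independent support. Of 177 values for the 10 members 168 kept their side of the threshold, 2 lost the call and 7 gained it. The 168 include 15 values of Pmaip1, which had to differ and so say nothing about stability. No called value turned its sign, while the values near 0 of the members not called did so for Bak1 under 1 alternative (-0.01) and for Bad under 5 (-0.08 to -0.01). The 7 gained calls belong to Bcl2 and Bad and the 2 lost ones to Bcl2l11; besides those given with these genes, Bcl2 was called with upper-quartile scaling (-0.22, edgeR adjusted p = 0.0383). On log2(FPKM + 1), which understates changes of low genes, Birc3 was at 2.36, Fas at 1.97, Endog at 0.71, Bcl2l15 at 0.52 and Bmf at -0.41. Pmaip1 had no value with at least 10 counts in every library or in limma with a filter on FPKM.

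With a change of 1 or more on the log2 scale required, 1 member was higher and 2 were lower, beside 15.8% of all tested genes. At an adjusted p under 0.001, 1 member was higher and 4 were lower, beside 14.4% and 13.7% of all tested genes. Among the 77 tested genes of the 6 lists, 12 were higher and 6 lower with the fold requirement, beside 8.65% and 7.17% of all tested genes. At an adjusted p under 0.001, 19 were higher and 14 lower, beside the same 14.4% and 13.7%. Both counts include genes that passed the filter through only 1 group. Of the markers of other cell types, 12 were called higher and 1 lower with at least 10 counts in every library, and 15 and 1 with either limma pseudocount, in tables that hold fewer genes. With FPKM rescaled to a total of 1000000, the log2 ratio of the summed FPKM was 0.39 for anti-apoptotic, -0.27 for effector and -0.03 for BH3-only genes, in place of 0.24, -0.43 and -0.19. The share of NM_177410 in Bcl2 differed by 1.24 percentage points in estimated counts, in place of 3.96 in FPKM.

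Bcl2l13 turned to -0.12 with the length trend removed, with or without the replicate block. With the length trend removed and the replicate block, Mapk8 was at -0.15, Foxo3 at -0.13 and Zmat3 at -0.3. The cause was not tested. Neither the labels nor the study's methods say that replicate numbers pair the libraries. Deviations of same-numbered libraries correlated at 0.076, -0.106 and 0.057 across genes, and not every library correlated best with its own number. With 3 libraries per group, and LLC alone 3 apart from the others, these values cannot decide whether the numbers pair the libraries. The replicate block gave 3 members higher and 4 lower, and with the length trend removed as well 3 higher and 5 lower. Pmaip1, which had to differ, is among those higher in both. With both, 28 genes of the 6 lists were higher and 32 lower, and of the factors that act on member proteins 6 were higher and 8 lower. The share of all tested genes called in these block fits is not given. These counts are therefore no result about the members or the lists.

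The depth of 33476347 to 46189113 fragments leaves Pmaip1, Hrk and the Bcl2a1 genes near the floor. With 3 libraries per group of unknown animal origin, changes of the size seen for Bcl2, Bad and Bcl2l11 depend on the fit. The length trend differed between the groups and was strongest in LLC alone 3. The calls of Bcl2 and Bad changed without that library and with the trend removed. That of Bcl2l11 changed only with the trend removed.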
